A study of Homo sapiens with 17 samples.

Results

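MDA-MB-231 cells given DZH_2, a code name whose structure no label states, had higher levels of most enzymes of cholesterol synthesis and lower levels of most genes of DNA replication and chromosome segregation than control cells. MDA-MB-231 is an established human breast cancer line of the triple-negative, mesenchymal type. The series holds 17 expression arrays of MDA-MB-231 and of cells titled MCF10 that were given DZH_2, Maraviroc or a control treatment. The 4 arrays described here are those whose titles name MDA-MB-231 and DZH_2, 2 at IC20 and 2 at IC50, the concentrations that inhibit by 20% and by 50%. No label gives the concentrations as amounts. Both doses were pooled and set against the 5 MDA-MB-231 control arrays, of which 2 were from cells in DMSO, the solvent of DZH_2, 2 from cells in ethanol, the solvent of Maraviroc, and 1 from untreated cells. Cells were seeded for 24 h, and the treated cells were then given their compound for 48 h. The 2 DMSO arrays are also set against DZH_2 on their own, because 3 of the 5 controls contained no DMSO. Nothing in the labels says that replicates were separate cultures, so the p-values rest on a spread between arrays that may be technical only.

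Cells make cholesterol from acetyl-CoA through the mevalonate pathway, and when sterols run low in the endoplasmic reticulum the SREBP transcription factors switch on the enzymes of this pathway and the receptors for sterol uptake. When sterols are plentiful, oxysterols instead activate the nuclear receptor LXR, which switches on the sterol exporters ABCA1 and ABCG1. Genes for DNA replication are switched on by E2F factors as cells enter S phase, and genes for mitosis are switched on later through a short promoter element called the cell cycle homology region and through CCAAT boxes.

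Values are deposited log2 signals of 17687 genes, and a difference of 1 is a change of 2-fold. Across genes the 9 arrays correlated at 0.972 to 0.994, and their median signals lay between 7.0 and 7.08. A group mean under 5.95, which 75% of the 612 negative control probe sets do not exceed, is described as near the negative controls, and the size of such a gene's difference depends on the floor of the array. Of 17 markers of MDA-MB-231, 16 were above that level, and VIM, the mesenchymal filament vimentin, stood at 16.13 to 16.51 in DZH_2 cells and at 16.71 to 17.04 in controls. Near the negative controls in both groups were 11 of 21 epithelial markers, 8 of 15 blood cell markers and 11 of 14 markers of fibroblasts, endothelium and fat. Some lists divided the DZH_2 arrays by their replicate number. Both DZH_2 arrays numbered 2 lay below both arrays numbered 1, across the doses, in 71.9% of the 32 replication fork genes and in 63.2% of the 38 replication-dependent histone genes, against 19.0% of all genes. Both lay above in 81.2% of the 16 aminoacyl-tRNA synthetases and in 70.4% of the 27 ATF4 genes, against 21.0% of all genes. Among 17 chaperone genes both lay below in 76.5%. Its source was not tested. Counts that it moves by over 1.5 times are given for each number alone, a division made after seeing the data.

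By limma, 1504 of the 17687 genes (8.5%) differed between the DZH_2 arrays and the 5 controls at an adjusted p under 0.05. Of these, 607 (3.43% of all genes tested) were higher in DZH_2 cells and 897 (5.07%) were lower. The list counts below are to be read beside these shares. The difference reached 2-fold in 225 of the raised and 440 of the lowered genes, and 4-fold in 30 and 48. In 525 of the raised genes all 4 DZH_2 arrays lay above all 5 controls, as they did in 4.85% of all genes, and in 706 of the lowered genes all 4 lay below, as in 5.4% of all genes. All 1504 genes had the same direction against DMSO as against the ethanol and untreated arrays. They were chosen against these same 5 controls, which favours such agreement. With the DZH_2 arrays numbered 1 alone 876 genes passed, and with those numbered 2 alone 1079 passed. Among genes past the threshold whose groups did not overlap, the 15 largest rises began with HMGCS1 and MSMO1 and the 15 largest falls with ABCG1 and H2BC14.

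**Figure D1:**
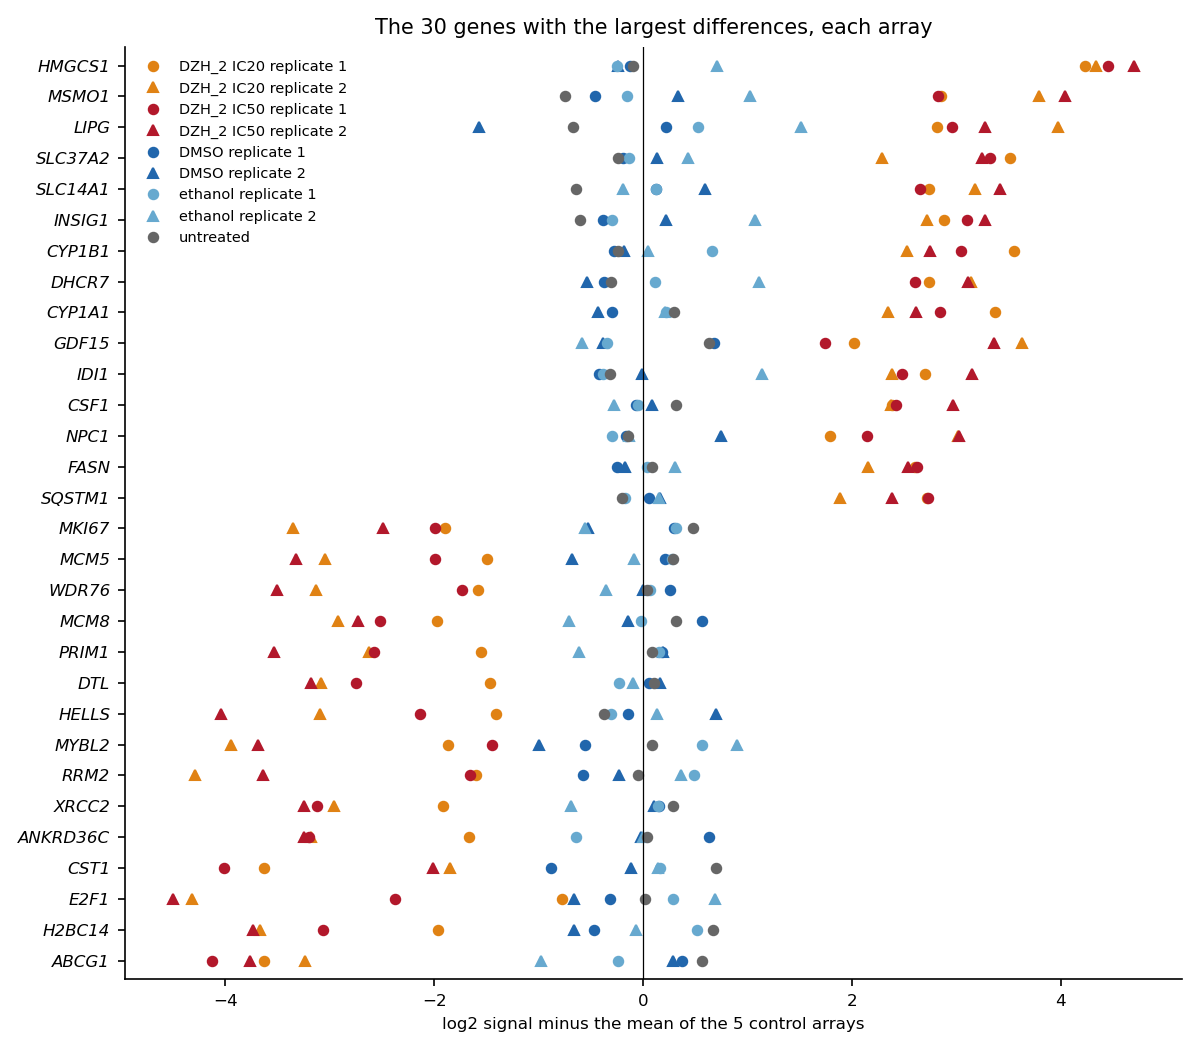
Log2 signal of each array minus the mean of the 5 control arrays, for the 15 largest rises and 15 largest falls in which all 4 DZH_2 arrays lay beyond all 5 controls. Orange and red points are DZH_2 at IC20 and IC50, blue points DMSO, light blue points ethanol and grey points untreated cells, with circles for replicate 1 and triangles for replicate 2. HMGCS1 stands apart at the top with all 4 DZH_2 arrays over 4 above the control mean, and the triangles of E2F1, RRM2 and MYBL2 lie far to the left of the circles.

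HMGCS1 (Entrez 3157), the synthase that makes HMG-CoA at the start of the mevalonate pathway, rose most of all genes. It stood at 12.44 and 12.56 on the IC20 arrays and 12.67 and 12.92 on the IC50 arrays, against 8.09 and 7.97 in DMSO, 7.97 and 8.92 in ethanol and 8.12 untreated. Every DZH_2 array was over 3 log2 units above every control. The difference was 4.43 ± 0.21, a 21.6-fold rise (adjusted p = 4.3e-08), and against DMSO alone it was 4.61 ± 0.22. MSMO1 (Entrez 6307) is a methyl sterol oxidase of the steps after lanosterol. It stood at 15.39 and 16.33 on the IC20 arrays and 15.36 and 16.58 on the IC50 arrays, against 12.08 and 12.87 in DMSO, 12.39 and 13.57 in ethanol and 11.80 untreated. Its groups did not overlap, and ethanol replicate 2 was the control nearest to the DZH_2 arrays. The difference was 3.38 ± 0.34 (adjusted p = 6.3e-05).

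Most of the other enzymes of the pathway rose too. Of 8 mevalonate pathway enzymes measured, 6 rose and none fell, with a median difference of 1.32, against a median of 0.03 over all genes. IDI1, the isopentenyl diphosphate isomerase, rose by 2.68 ± 0.29, MVD, which decarboxylates mevalonate diphosphate, by 1.54 ± 0.23, FDPS, which makes farnesyl diphosphate, by 1.34 ± 0.22, and the thiolase ACAT2 by 1.10 ± 0.21. Of 11 enzymes from squalene to cholesterol, 8 rose and none fell, with a median of 1.67. DHCR7, which catalyses the last reduction to cholesterol, stood at 13.35 to 13.89 in DZH_2 cells and 10.20 to 11.86 in controls, a difference of 2.90 ± 0.28. The lanosterol demethylase CYP51A1 rose by 2.06 ± 0.22, the sterol ketoreductase HSD17B7 by 1.97 ± 0.20 and the lanosterol synthase LSS by 1.48 ± 0.19. With single arrays left out, 6 to 7 of the mevalonate enzymes and 7 to 9 of the later enzymes passed. Ethanol replicate 2 was the highest control in HMGCS1, MSMO1, IDI1, DHCR7, HSD17B7, CYP51A1 and LSS, at 11.86 in DHCR7 for example, and still lay below every DZH_2 array in each of them.

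The promoters of HMGCS1 and MSMO1, the pair with the largest rises, are shown because their genes lead the response. The windows run from 250 bases before to 50 bases after the start that RefSeq annotates on GRCh38.p14, 5′ to 3′ on the gene's strand, with CCAAT boxes (CCAAT on either strand) in capitals.
HMGCS1, chr5:43313363-43313662 (- strand): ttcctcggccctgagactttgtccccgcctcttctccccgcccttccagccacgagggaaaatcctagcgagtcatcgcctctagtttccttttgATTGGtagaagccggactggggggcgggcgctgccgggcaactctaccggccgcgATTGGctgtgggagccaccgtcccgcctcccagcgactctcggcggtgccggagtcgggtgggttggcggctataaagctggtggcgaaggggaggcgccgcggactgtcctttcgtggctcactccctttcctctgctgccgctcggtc
MSMO1, chr4:165327419-165327718 (+ strand): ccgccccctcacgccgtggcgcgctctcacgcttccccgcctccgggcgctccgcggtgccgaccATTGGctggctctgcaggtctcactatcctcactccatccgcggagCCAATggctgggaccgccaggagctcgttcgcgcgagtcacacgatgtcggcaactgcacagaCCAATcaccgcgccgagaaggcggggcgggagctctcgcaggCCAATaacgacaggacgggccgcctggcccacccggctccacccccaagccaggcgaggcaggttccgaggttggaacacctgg
The HMGCS1 window held 2 CCAAT boxes and the MSMO1 window 4. RefSeq gave a window for 12 of the 14 sterol synthesis enzymes that rose, taking the first listed per gene, and 10 of the 12 held a CCAAT box (83.3%), against 36.4% of the windows of 14250 genes tested. The letters TCACNCCAC, 1 form of the sterol regulatory element, were in none of the 12 and in 1.2% of all windows. At so low a share 12 windows are too few for their absence to mean anything, and other forms were not searched.

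Regulators of sterol balance did not move as a block. Of 15 genes of sterol sensing and uptake, 6 rose and 2 fell, with a median of 0.14, and 1 fell without IC20 replicate 1. INSIG1 (Entrez 3638), which holds the SREBP complex in the endoplasmic reticulum and is itself an SREBP target, stood at 12.19 and 12.02 on the IC20 arrays and 12.41 and 12.58 on the IC50 arrays, against 8.93 and 9.52 in DMSO, 9.0 and 10.38 in ethanol and 8.70 untreated. Its lowest DZH_2 array was above the highest control, ethanol replicate 2, and the difference was 2.99 ± 0.28 (adjusted p = 3.4e-05). SREBF2, which codes for the SREBP of the cholesterol pathway, rose by 1.25 ± 0.21. SREBF1, which codes for the SREBP of fatty acid synthesis and is also a target of LXR, went the other way, at 13.37 to 13.82 in DZH_2 cells and 14.59 to 15.06 in controls, a difference of -1.28 ± 0.17 (adjusted p = 0.00031). NPC1, which moves cholesterol out of lysosomes, stood at 13.10 and 14.33 on the IC20 arrays and 13.46 and 14.34 on the IC50 arrays, against 11.15 and 12.06 in DMSO, 11.01 and 11.18 in ethanol and 11.16 untreated. DMSO replicate 2 was the highest control, and the rise was 2.49 ± 0.28. STARD4, a cytosolic sterol carrier, rose by 1.62 ± 0.25.

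The sterol exporters ABCG1 and ABCA1 were lower in DZH_2 cells, ABCG1 past the threshold under all 24 alternatives tried and ABCA1 not. ABCG1 (Entrez 9619), which hands cholesterol to lipoproteins, had the largest fall of all genes named here. It stood at 6.90 and 7.29 on the IC20 arrays and 6.40 and 6.77 on the IC50 arrays, against 10.90 and 10.82 in DMSO, 10.30 and 9.55 in ethanol and 11.09 untreated. Ethanol replicate 2 was the lowest control and still over 2 log2 units above every DZH_2 array. The difference was -3.69 ± 0.28 (adjusted p = 8.3e-06), and -4.02 ± 0.26 against DMSO alone. ABCA1, the exporter that loads apolipoprotein A-I, depended on the control: DZH_2 cells stood at 5.06 to 6.21, near the negative controls, against 7.82 and 7.83 in DMSO, 5.72 and 6.33 in ethanol and 7.54 untreated. Its difference was -1.53 ± 0.40 (adjusted p = 0.026), -2.31 ± 0.30 against DMSO alone (adjusted p = 0.0028), and against ethanol and untreated cells it did not pass (adjusted p = 0.17). It also missed the threshold without either DMSO array, without the untreated array, and without any 1 of DZH_2 IC20 replicate 2, IC50 replicate 1 and IC50 replicate 2. Of 11 LXR targets and efflux genes, 3 fell, which were these exporters and SREBF1, and none rose. APOE and LPCAT3, further LXR targets, had differences of 0.38 ± 0.20 and -0.60 ± 0.27 and did not pass.

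**Figure D2:**
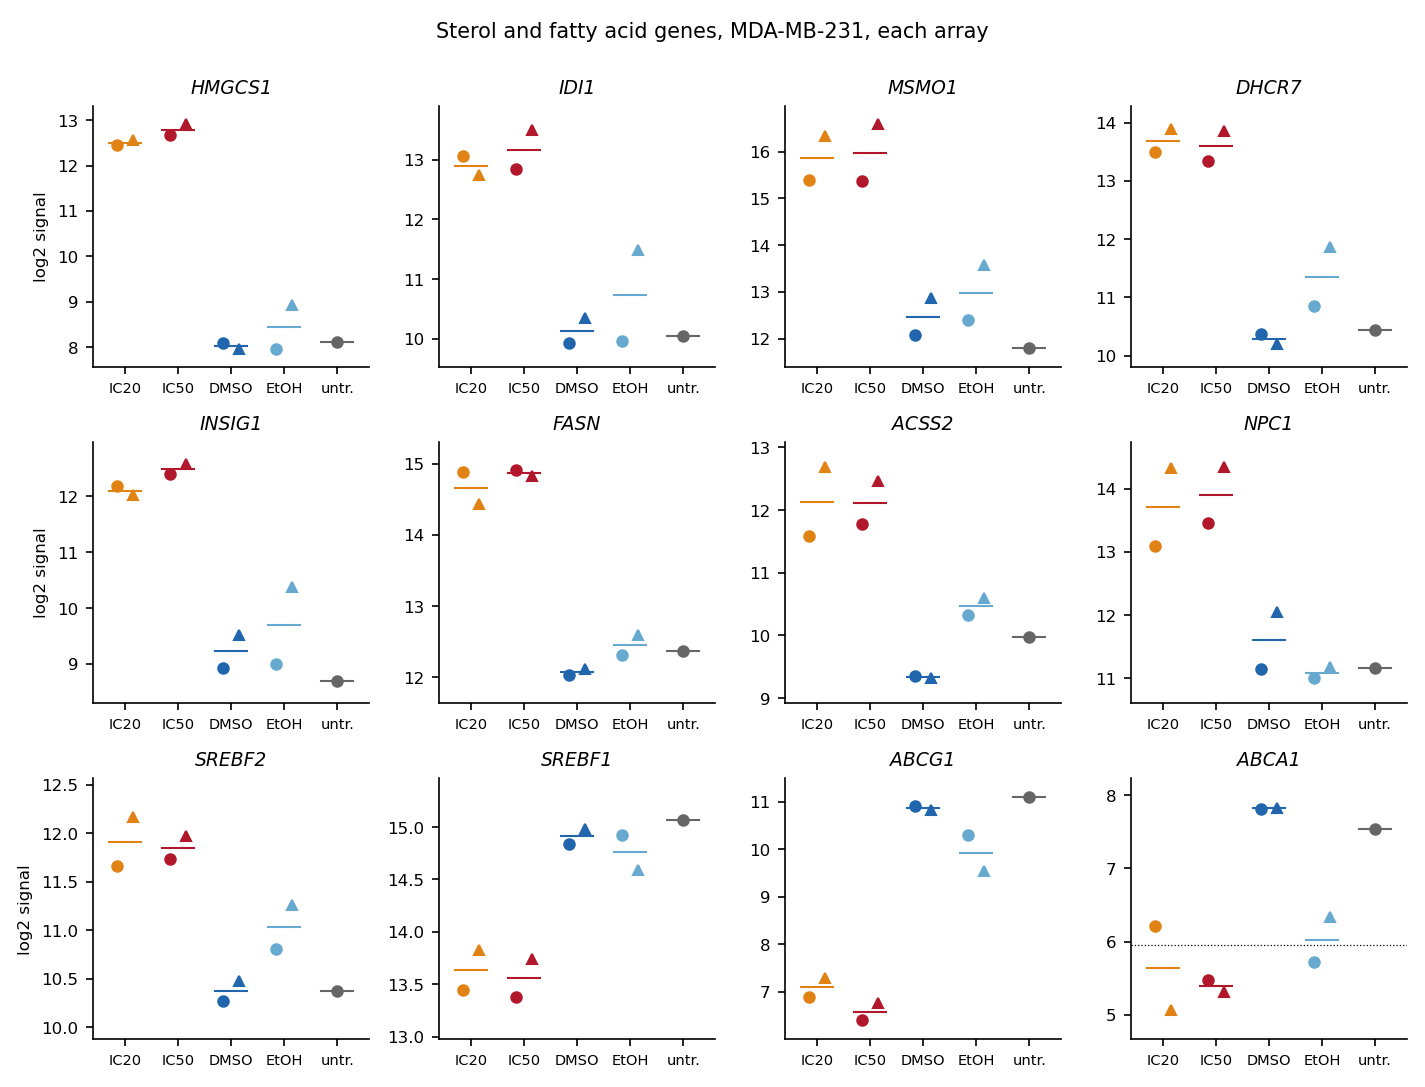
Log2 signal of each array for 12 genes of sterol and fatty acid metabolism. From left to right the columns are DZH_2 at IC20, DZH_2 at IC50, DMSO, ethanol (EtOH) and untreated cells (untr.), circles and triangles are replicates 1 and 2, bars are group means, and the dotted line, where in range, is the 75th percentile of the negative controls at 5.95. The DZH_2 arrays lie above all controls in the upper panels up to SREBF2 and below them in SREBF1 and ABCG1, while in ABCA1 the ethanol arrays lie close to DZH_2.

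Genes of fatty acid synthesis were higher or did not pass. Of 21 genes measured, 9 rose and none fell, with a median of 0.61. FASN (Entrez 2194), the fatty acid synthase, stood at 14.89 and 14.44 on the IC20 arrays and 14.91 and 14.82 on the IC50 arrays, against 12.04 and 12.11 in DMSO, 12.32 and 12.59 in ethanol and 12.37 untreated. The groups lay over 1 log2 unit apart, and the difference was 2.48 ± 0.17 (adjusted p = 4.9e-06). ACSS2, which makes acetyl-CoA from acetate, stood at 11.59 to 12.69 in DZH_2 cells and 9.32 to 10.60 in controls and rose by 2.21 ± 0.29. The acyl-CoA synthetase ACSL1 rose by 1.39 ± 0.21, the elongase ELOVL6 by 1.29 ± 0.20, and the acetyl-CoA carboxylase ACACA, which makes malonyl-CoA, by 0.80 ± 0.15. SLC25A1, the mitochondrial carrier that exports citrate for lipid synthesis, rose by 1.37 ± 0.26.

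Of 19 genes of triglyceride and phospholipid metabolism 6 rose and none fell. LIPG (Entrez 9388), the endothelial lipase, stood at 7.78 and 8.93 on the IC20 arrays and 7.91 and 8.23 on the IC50 arrays, against 5.17 and 3.38 in DMSO, 5.48 and 6.47 in ethanol and 4.28 untreated. Its controls were near the negative controls and spread over 3 log2 units, so the rise of 3.25 ± 0.46 depends on the floor. PCYT2, the enzyme that commits ethanolamine to phosphatidylethanolamine, rose by 2.22 ± 0.24, PLIN2, a coat protein of lipid droplets, by 1.34 ± 0.17, and the choline kinase CHKA by 1.11 ± 0.20. Of 22 sphingolipid genes 5 rose, led by the lysosomal ceramidase ASAH1 (1.57 ± 0.17) and the glucosylceramide synthase UGCG (1.44 ± 0.19). With the DZH_2 arrays numbered 2 alone 2 of the sphingolipid genes passed. Of 15 genes of sterol esters, oxysterols and bile acids 3 rose and 1 fell. The lysosomal acid lipase LIPA rose by 1.22 ± 0.23, the sterol hydroxylase CYP27A1 by 1.30 ± 0.26 and the oxysterol-binding protein OSBP by 0.88 ± 0.20. OSBPL6, a relative of OSBP, fell by 1.51. Neither OSBP nor OSBPL6 passed against DMSO alone (limma, adjusted p = 0.117 and 0.093). With the arrays numbered 1 alone none of the 15 rose, and 2 fell without IC20 replicate 2 or without the untreated array. Fatty acid oxidation showed 1 gene in 21 past the threshold, the coactivator PPARGC1A, at 8.87 and 9.22 on the IC20 arrays and 9.66 and 10.12 on the IC50 arrays, against 7.42 to 8.32 in controls, a rise of 1.59 ± 0.25, and 2 rose without IC20 replicate 1.

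Targets of the aryl hydrocarbon receptor, a ligand-activated factor that induces enzymes for foreign compounds, were among the largest rises. CYP1A1 (Entrez 1543), its classical target, stood at 9.97 and 8.95 on the IC20 arrays and 9.45 and 9.22 on the IC50 arrays, against 6.31 and 6.17 in DMSO, 6.82 and 6.81 in ethanol and 6.91 untreated. CYP1B1 (Entrez 1545), a related cytochrome P450, stood at 9.82 and 8.80 on the IC20 arrays and 9.31 and 9.02 on the IC50 arrays, against 5.99 and 6.09 in DMSO, 6.93 and 6.32 in ethanol and 6.03 untreated. In both genes every DZH_2 array was over 1 log2 unit above every control, and the 2 genes had the same order of DZH_2 arrays, with IC20 replicate 1 highest and IC20 replicate 2 lowest. The rises were 2.79 ± 0.23 and 2.97 ± 0.24 (adjusted p = 8.5e-06 and 8.3e-06). TIPARP, a feedback inhibitor of the receptor, rose by 1.86 ± 0.20 and the quinone reductase NQO1 by 1.29 ± 0.20. In all 4 of 14 measured genes rose and none fell. With either set of DZH_2 arrays, those numbered 1 or those numbered 2 alone, 4 also passed. A promoter window, taken as above, was found for 3 of the 4. The letters TNGCGTG, the core of the receptor's site, were in 1 of the 3, that of NQO1, against 6.6% of all windows. The windows of CYP1A1 and TIPARP did not hold them.

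Targets of NRF2, the factor that answers oxidative stress, share NQO1 with that list. Of 25 genes 9 rose and none fell, with a median of 0.45, and with the IC20 arrays alone 5 passed. FTL, the ferritin light chain, stood at 17.46 to 17.66 in DZH_2 cells and 16.14 to 16.59 in controls, a rise of 1.24 ± 0.15. The thioredoxin reductase TXNRD1 rose by 1.36 ± 0.19, the transketolase TKT by 1.20 ± 0.22 and the glutathione reductase GSR by 1.01 ± 0.18.

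Lysosome and autophagy genes that passed were higher, and most of each list did not pass. SQSTM1 (Entrez 8878), the autophagy receptor p62 and also an NRF2 target, stood at 16.40 and 15.57 on the IC20 arrays and 16.40 and 16.07 on the IC50 arrays, against 13.74 and 13.84 in DMSO, 13.50 and 13.83 in ethanol and 13.48 untreated. The lowest DZH_2 array was over 1 log2 unit above the highest control, and the rise was 2.43 ± 0.19 (adjusted p = 8.3e-06). CTSD, the aspartic protease cathepsin D, stood at 14.12 to 15.10 in DZH_2 cells and 11.48 to 12.85 in controls, a rise of 2.30 ± 0.26. The proton pump subunit ATP6AP1 rose by 1.25 ± 0.18, PSAP, the precursor of the saposins, by 1.17 ± 0.16, and the chloride transporter CLCN7 by 0.83 ± 0.20, which missed the threshold without IC50 replicate 1. Of 31 lysosome genes 11 rose and none fell, with a median of 0.41, but the count was 6 against DMSO alone, 6 without the untreated array and 7 without any 1 of DZH_2 IC20 replicate 2, IC50 replicate 1 and IC50 replicate 2. GABARAPL1, which coats autophagosomes, stood at 10.90 to 11.38 in DZH_2 cells and 8.38 to 9.64 in controls, a rise of 2.0 ± 0.22. Of 27 autophagy genes 7 rose and none fell, and 4 rose without DZH_2 IC20 replicate 1 or without IC50 replicate 2. ATG2A, a lipid transfer protein of the growing autophagosome, rose by 0.95 ± 0.19 and the phosphoinositide-binding WIPI1 by 1.28 ± 0.25. Neither passed under all 24 alternatives, and WIPI1 missed the threshold against DMSO alone (limma, adjusted p = 0.14).

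The classical stress programmes were less uniform. GDF15 (Entrez 9518), a secreted stress cytokine, stood at 9.62 and 11.23 on the IC20 arrays and 9.35 and 10.96 on the IC50 arrays, against 8.28 and 7.22 in DMSO, 7.25 and 7.02 in ethanol and 8.24 untreated. The arrays numbered 2 were over 1 log2 unit above those numbered 1 at each dose, and the rise was 2.69 ± 0.38 (adjusted p = 0.00058). Of 27 genes of the ATF4 response, which answers amino acid shortage and other stresses, 5 rose and 1 fell, with a median of -0.21. DDIT4, an inhibitor of mTORC1, rose by 1.51 ± 0.33, the transcription factor CEBPB by 0.82 ± 0.16 and the phosphatase subunit PPP1R15A by 1.27 ± 0.26, while the serine synthesis enzyme PSPH fell by 1.04. With the arrays numbered 1 alone 3 rose and 7 fell, and with those numbered 2 alone 5 rose and none fell. Without ethanol replicate 2 the falls numbered 6, and without IC20 replicate 2 they numbered 4. In the unfolded protein response 3 of 25 genes rose and none fell: SEC24D, a coat protein of export vesicles, by 0.89 ± 0.16, the ubiquitin ligase SYVN1 by 0.78 ± 0.18 and the chaperone DNAJB9 by 0.64 ± 0.19, which missed the threshold without any 1 array other than DMSO replicate 2. Among 17 chaperones 3 rose and 1 fell, and against DMSO alone none rose and 2 fell, while 2 also fell without ethanol replicate 2. HSPA1A, the inducible HSP70, which has a near-identical neighbour and is uncertain as a single gene, stood at 14.44 and 13.66 on the DZH_2 arrays numbered 1 and 10.58 and 11.52 on those numbered 2, against 9.78 to 10.59 in controls. Its rise of 2.46 ± 0.58 (adjusted p = 0.015) did not pass against DMSO alone (adjusted p = 0.11) or without IC50 replicate 1. Of 24 p53 targets, which include GDF15, 2 rose and 1 fell, with a median of 0.10. Over all genes tested 3.43% rose and 5.07% fell. Of the p53 targets the fall depended on single arrays. None fell without any 1 of IC20 replicate 1, IC20 replicate 2, IC50 replicate 2, DMSO replicate 1 and the untreated array, and 2 fell without DMSO replicate 2.

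**Figure D3:**
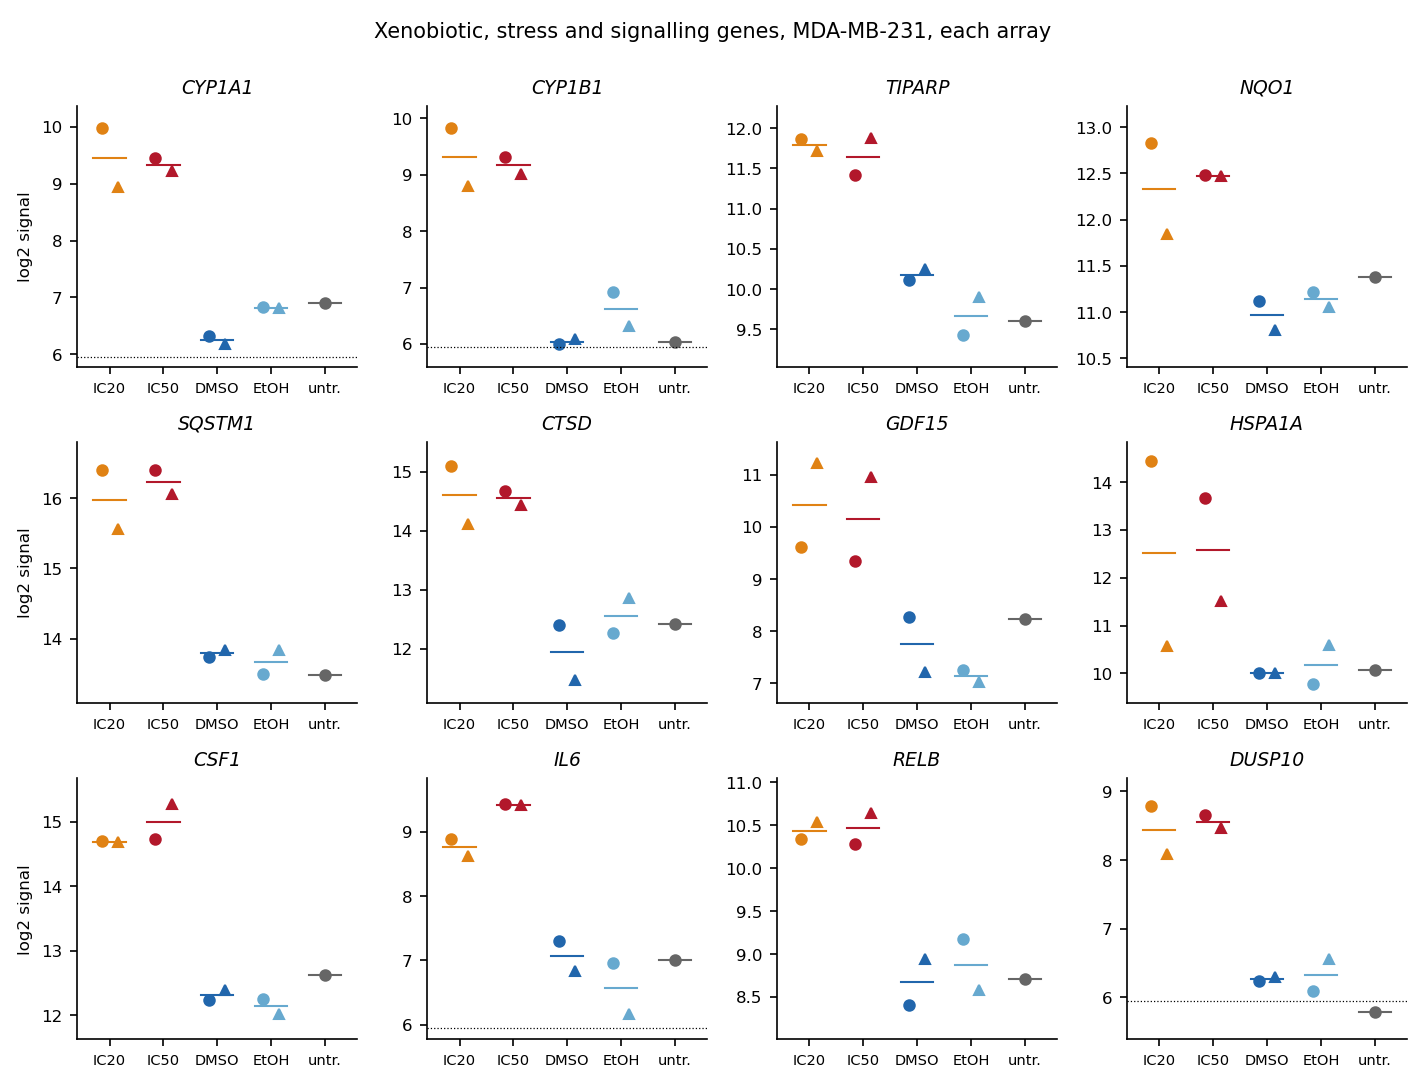
Log2 signal of each array for 12 genes of foreign compound metabolism, stress and signalling. Columns, symbols and bars are as named for the lipid genes: DZH_2 at IC20 and IC50 on the left, then DMSO, ethanol and untreated cells, circles for replicate 1 and triangles for replicate 2. In HSPA1A the triangle at IC20 lies level with the highest control, and in the other 11 panels all DZH_2 points lie above all control points.

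Most genes that start DNA replication were lower. Of 27 genes of origin licensing and firing, 22 fell and none rose, with a median of -1.29. MCM8 (Entrez 84515), a helicase of replication and repair, stood at 9.17 and 8.21 on the IC20 arrays and 8.62 and 8.40 on the IC50 arrays, against 11.70 and 10.99 in DMSO, 11.12 and 10.43 in ethanol and 11.46 untreated. Its groups lay over 1 log2 unit apart, and the difference was -2.54 ± 0.25 (adjusted p = 5.9e-05). MCM5, a subunit of the replicative helicase, stood at 9.04 and 8.54 on the DZH_2 arrays numbered 1 and 7.48 and 7.21 on those numbered 2, against 9.85 to 10.82 in controls. All 4 were below the controls, and the difference was -2.46 ± 0.33. CDC45, which activates that helicase, had a difference of -2.21 ± 0.24, the loading factor CDC6 of -2.35 ± 0.30 and the helicase subunit MCM6 of -2.25 ± 0.29. In RNA from whole cultures, fewer dividing cells and less of these RNAs per cell cannot be told apart. The count of 22 was 19 to 22 with single arrays left out, 15 against DMSO alone, and 14 with the arrays numbered 1 alone.

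The replication fork showed the same direction. Of 32 polymerase, clamp and primase genes 26 fell and none rose, with a median of -1.48. RFC2 (Entrez 5982), a subunit of the clamp loader, stood at 9.19 and 8.73 on the IC20 arrays and 8.99 and 8.52 on the IC50 arrays, against 11.26 and 11.19 in DMSO, 11.58 and 10.55 in ethanol and 11.39 untreated. No array of the groups overlapped, and the difference was -2.33 ± 0.21 (adjusted p = 2.9e-05). PRIM1, the catalytic primase subunit, had a difference of -2.57 ± 0.31, POLA1, the catalytic subunit of polymerase alpha, -1.74 ± 0.19, and the further clamp loader subunits RFC3 and RFC4 -1.73 ± 0.20 and -1.75 ± 0.20. Enzymes of nucleotide supply fell in 12 of 25 cases and rose in none, with 7 falling against DMSO alone. RRM1 (Entrez 6240), the large subunit of ribonucleotide reductase, stood at 10.47 and 9.73 on the IC20 arrays and 10.36 and 9.61 on the IC50 arrays, against 12.40 and 12.62 in DMSO, 12.48 and 11.92 in ethanol and 12.29 untreated, a difference of -2.30 ± 0.21 (adjusted p = 2.9e-05). RRM2, the small subunit, was divided by replicate number, at 10.50 and 10.45 on the DZH_2 arrays numbered 1 and 7.81 and 8.46 on those numbered 2, against 11.53 to 12.59 in controls. Its difference of -2.80 ± 0.47 did not pass against DMSO alone (adjusted p = 0.056). The thymidine kinase TK1 had a difference of -2.20 ± 0.32 and the dUTPase DUT of -1.44 ± 0.18.

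The promoters of CDC6 and MCM6 are shown for the E2F letters TTTNGCGC, searched on both strands and printed in capitals, in the same windows as above.
CDC6, chr17:40287629-40287928 (+ strand): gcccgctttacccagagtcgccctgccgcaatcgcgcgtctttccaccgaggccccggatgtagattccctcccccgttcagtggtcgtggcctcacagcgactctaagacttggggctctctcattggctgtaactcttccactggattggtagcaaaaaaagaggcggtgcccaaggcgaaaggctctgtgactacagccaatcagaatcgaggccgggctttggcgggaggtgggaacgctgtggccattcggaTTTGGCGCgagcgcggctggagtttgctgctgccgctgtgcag
MCM6, chr2:135876394-135876693 (- strand): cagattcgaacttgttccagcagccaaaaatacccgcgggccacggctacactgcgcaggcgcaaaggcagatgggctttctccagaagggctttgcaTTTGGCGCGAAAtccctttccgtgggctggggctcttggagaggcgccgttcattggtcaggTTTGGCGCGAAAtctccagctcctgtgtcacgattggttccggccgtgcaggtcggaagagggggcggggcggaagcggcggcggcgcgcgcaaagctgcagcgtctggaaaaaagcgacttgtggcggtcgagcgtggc
CDC6 held 1 match, just downstream of the annotated start, and MCM6 held 4 that form 2 stretches, since the letters and their reverse complement overlap there. A window was found for 39 of the 48 licensing and fork genes that fell, and 15 of them (38.5%) held the E2F letters, against 2.4% of all windows. A match is a run of letters and not a measured binding site.

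Repair and checkpoint genes were lower or did not pass. Of 33 genes of homologous recombination and Fanconi anaemia repair 20 fell and none rose, with a median of -1.04. XRCC2 (Entrez 7516), a gene of homologous recombination, stood at 7.04 and 6.0 on the IC20 arrays and 5.83 and 5.71 on the IC50 arrays, against 9.11 and 9.07 in DMSO, 9.10 and 8.27 in ethanol and 9.25 untreated. Its IC50 arrays were under 5.95, near the negative controls, so the size of the fall depends on the floor. Ethanol replicate 2 was the lowest control and lay above every DZH_2 array, and the difference was -2.81 ± 0.27 (adjusted p = 3.9e-05). The nuclease EXO1 had a difference of -2.26 ± 0.27, UBE2T, which charges the Fanconi ubiquitin ligase, -1.63 ± 0.24, and FANCI, a Fanconi clamp subunit, -1.25 ± 0.17. Of 25 checkpoint genes 10 fell and none rose. DTL, which targets proteins for destruction during S phase, had a difference of -2.62 ± 0.28, the checkpoint kinase CHEK1 -1.86 ± 0.22 and the phosphatase CDC25A -1.66 ± 0.25.

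Regulators of the cell cycle fell in 17 of 38 cases and rose in none. E2F1 (Entrez 1869), an activator of replication genes, stood at 9.07 and 7.48 on the DZH_2 arrays numbered 1 and 5.53 and 5.35 on those numbered 2, against 9.53 and 9.19 in DMSO, 10.13 and 10.53 in ethanol and 9.86 untreated. IC20 replicate 1 lay just below DMSO replicate 2, the lowest control, and the other 3 lay far lower. The DZH_2 arrays numbered 2 were under 5.95, near the negative controls, so the size of the fall depends on the floor. The difference was -2.99 ± 0.59 (adjusted p = 0.005), and it did not pass against DMSO alone (adjusted p = 0.11) or with the IC20 arrays alone. MYBL2, a partner of the complex that turns on mitotic genes, was divided in the same way. It stood at 9.02 and 9.45 on the arrays numbered 1 and 6.95 and 7.21 on those numbered 2, against 9.90 to 11.79 in controls. Its difference was -2.74 ± 0.49, and against DMSO alone its difference of -1.96 did not pass (limma, adjusted p = 0.088). The kinase CDK2 had a difference of -1.40 ± 0.20, the ubiquitin ligase subunit SKP2 -1.57 ± 0.19 and the pocket protein RBL1 -2.0 ± 0.24. The count of falls was 7 against DMSO alone, where 1 gene of the list rose, and 10 with the arrays numbered 1 alone. With single arrays left out 0 to 1 of the list rose.

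Mitotic genes fell in most cases. Of 38 mitosis regulators 26 fell, of 33 kinetochore and centromere genes 28 fell, and of 29 kinesins and genes of cytokinesis and the spindle 26 fell, with medians of -1.17, -1.21 and -1.40, and none of these rose. NDC80 (Entrez 10403), the kinetochore protein that holds microtubules, stood at 7.41 and 6.59 on the IC20 arrays and 6.78 and 6.74 on the IC50 arrays, against 9.20 and 8.62 in DMSO, 9.31 and 9.11 in ethanol and 9.39 untreated. The groups lay over 1 log2 unit apart, and the difference was -2.25 ± 0.21 (adjusted p = 2.9e-05). TPX2, which activates Aurora A on the spindle, averaged 10.50 ± 0.35 in DZH_2 cells (SD, n = 4) and 12.55 ± 0.35 in controls (SD, n = 5), a difference of -2.05 ± 0.21. MKI67, the proliferation marker Ki-67, had a difference of -2.43 ± 0.30, the kinase MELK -1.83 ± 0.19 and FBXO5, an inhibitor of the anaphase-promoting complex, -2.02 ± 0.26. Among the motors and the contractile ring, KIF4A had a difference of -1.96 ± 0.22, ANLN -1.96 ± 0.24 and the formin DIAPH3 -1.99 ± 0.29. Against DMSO alone the counts were 13, 16 and 17, and with the arrays numbered 1 alone 18, 16 and 13. With single arrays left out they were 23 to 27, 25 to 30 and 24 to 27.

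The promoters of NDC80 and KIF4A are shown for the cell cycle homology region, the letters TTTGAA on either strand, in capitals.
NDC80, chr18:2571307-2571606 (+ strand): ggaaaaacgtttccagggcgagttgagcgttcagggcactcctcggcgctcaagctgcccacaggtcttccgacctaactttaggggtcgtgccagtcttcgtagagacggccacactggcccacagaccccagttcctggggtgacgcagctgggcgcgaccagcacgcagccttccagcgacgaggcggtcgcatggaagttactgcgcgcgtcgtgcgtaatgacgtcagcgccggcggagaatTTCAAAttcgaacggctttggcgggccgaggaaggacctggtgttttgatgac
KIF4A, chrX:70289854-70290153 (+ strand): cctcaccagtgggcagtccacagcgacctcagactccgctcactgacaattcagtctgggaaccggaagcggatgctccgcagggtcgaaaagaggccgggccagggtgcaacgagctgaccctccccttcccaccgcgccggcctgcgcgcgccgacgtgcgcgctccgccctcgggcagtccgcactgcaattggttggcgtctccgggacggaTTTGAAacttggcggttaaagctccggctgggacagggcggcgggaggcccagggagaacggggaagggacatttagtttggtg
Each held 1 match, at the annotated start in NDC80 and close upstream of it in KIF4A. A window was found for 65 of the 79 mitotic genes that fell, and 42 of them (64.6%) held these letters, against 12% of all windows. CCAAT boxes were in 46 of the 65 (70.8%), against 36.4% of all windows, and the E2F letters in 4 (6.2%). The replication genes held TTTGAA in 1 of 39 windows and CCAAT boxes in 21 of them (53.8%), so CCAAT boxes were not particular to the mitotic genes.

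**Figure D4:**
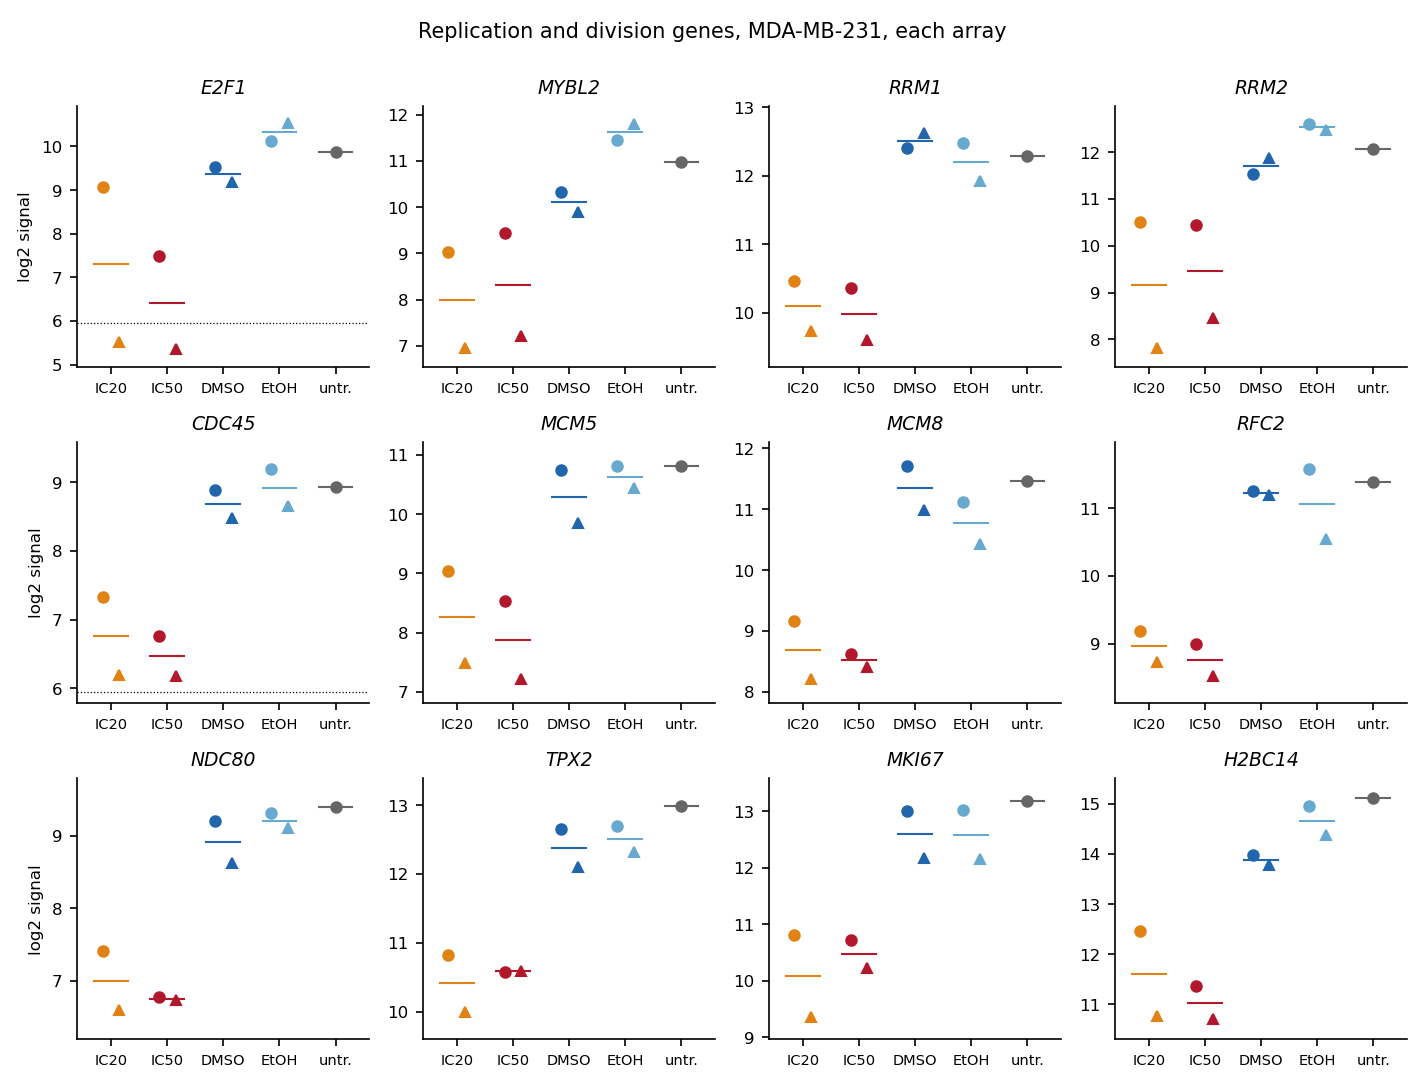
Log2 signal of each array for 12 genes of replication and division, with DZH_2 at IC20 and IC50 on the left, then DMSO, ethanol (EtOH) and untreated cells (untr.). Circles and triangles are replicates 1 and 2, bars are group means and the dotted line is the 75th percentile of the negative controls at 5.95. All DZH_2 points lie below all control points, and in E2F1, MYBL2, RRM2 and MCM5 the triangles of both doses lie more than 1 log2 unit below the circles.

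Genes of chromosome structure, centrosomes and chromatin were mostly lower where they passed. Of 20 condensin, cohesin and chromosome genes 11 fell and none rose, with NCAPG, a condensin subunit, at 7.14 to 8.69 in DZH_2 cells and 9.96 to 10.69 in controls (difference -2.31 ± 0.27). TOP2A, the topoisomerase that untangles sister chromatids, had a difference of -1.74 ± 0.25. Of 22 centrosome genes 9 fell and none rose, with the smallest p in CCP110 (-1.78 ± 0.24), a cap of the centriole. They included PLK4 (-2.18 ± 0.33), the kinase that starts centriole copying. Its IC50 arrays, at 5.82 and 5.11, were under 5.95, so the size of its fall depends on the floor. Of 36 chromatin genes 20 fell and 2 rose, against 13 and 1 with DMSO alone, and 1 rose without IC20 replicate 2 or without IC50 replicate 2. EZH2, the methyltransferase of histone H3 lysine 27, stood at 8.92 to 9.52 in DZH_2 cells and 10.50 to 11.52 in controls, a difference of -1.94 ± 0.22. UHRF1, which brings DNA methylation to new strands, had a difference of -2.32 ± 0.30, the nucleosome remodeller HELLS -2.67 ± 0.41, and the nuclear lamina gene LMNB1 -2.03 ± 0.27.

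Replication-dependent histones, made in S phase and coded by near-identical genes that arrays may not separate, fell in 19 of 38 cases and rose in none. H2BC14 (Entrez 8342) stood at 12.47 and 10.76 on the IC20 arrays and 11.37 and 10.70 on the IC50 arrays, against 13.97 and 13.78 in DMSO, 14.96 and 14.37 in ethanol and 15.11 untreated. DMSO gave the 2 lowest controls, and the difference was -3.11 ± 0.35, or -2.55 ± 0.42 against DMSO alone. The list depended on the controls and on single arrays: 1 gene passed against DMSO alone, 11 without IC50 replicate 2, 3 with the DZH_2 arrays numbered 1 alone and 19 with those numbered 2 alone. The median was -0.80 against the 5 controls and -0.44 against DMSO alone.

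Lists of protein and RNA production had few or no raised genes. None of 18 ribosomal protein genes passed, with a median of 0.10, and of 19 genes of ribosome biogenesis and MYC targets 1 fell, with 6 falling without ethanol replicate 2, 2 without IC20 replicate 1 and none without any 1 of IC50 replicate 2, ethanol replicate 1 and the untreated array. Of 36 splicing factors 11 fell, with the smallest p in TRA2A (-1.30 ± 0.20) and HNRNPR (-0.98 ± 0.17). The count of splicing factors was 4 against DMSO alone, 5 without IC50 replicate 2, 6 without DMSO replicate 1 and 7 without the untreated array. Of 26 nuclear pore and transport genes 8 fell, with the smallest p in NUP43 (-0.97 ± 0.16). Against DMSO alone 2 of them fell, and with the DZH_2 arrays numbered 1 alone 1 fell. Of 28 proteasome subunits 6 fell, with the smallest p in the ATPase PSMC3 (-0.94 ± 0.16), and none rose, with 3 falling against DMSO alone. Of 16 aminoacyl-tRNA synthetases 2 fell, or 1 without any 1 array other than IC20 replicate 2 and ethanol replicate 2. FARSB, which charges tRNA with phenylalanine, stood at 11.16 to 11.63 in DZH_2 cells and 12.48 to 13.43 in controls, a difference of -1.63 ± 0.21. EPRS1 had 8.67 and 9.04 on the DZH_2 arrays numbered 1 and 9.20 and 9.67 on those numbered 2, against 11.38 and 10.91 in DMSO, 10.38 and 8.89 in ethanol and 10.72 untreated. Ethanol replicate 2 lay among the DZH_2 arrays there, and the adjusted p was 0.047, or 0.004 against DMSO alone, and it missed the threshold against the 5 controls without any 1 array other than ethanol replicate 2. GARS1 was divided likewise, at 12.17 and 12.47 on the DZH_2 arrays numbered 1 and 13.79 and 13.81 on those numbered 2, against 12.82 to 15.11 in controls, and its difference of -1.51 ± 0.46 missed the threshold.

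Signalling genes rose in 2 groups. Of 32 immediate early genes and MAP kinase feedback genes 13 rose and 1 fell, with a median of 0.53. DUSP10 (Entrez 11221), a phosphatase of the stress kinases p38 and JNK, stood at 8.79 and 8.09 on the IC20 arrays and 8.65 and 8.47 on the IC50 arrays, against 6.24 and 6.29 in DMSO, 6.09 and 6.56 in ethanol and 5.79 untreated. The groups were over 1 log2 unit apart, and the rise was 2.31 ± 0.19 (adjusted p = 1.3e-05). DUSP1, a phosphatase of the same kinases, rose by 2.29 ± 0.26, and the AP-1 subunits JUND and JUNB by 1.71 ± 0.18 and 1.65 ± 0.19. The count of rises was 7 against DMSO alone and 8 with the DZH_2 arrays numbered 1 alone, and 2 fell without DMSO replicate 2.

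Of 23 NF-kB targets and inflammatory cytokines 10 rose and none fell, with a median of 0.96. CSF1 (Entrez 1435), the growth factor of macrophages, stood at 14.70 and 14.68 on the IC20 arrays and 14.73 and 15.28 on the IC50 arrays, against 12.24 and 12.40 in DMSO, 12.26 and 12.03 in ethanol and 12.62 untreated. Every DZH_2 array was above 14 and every control below 13, and the rise was 2.54 ± 0.18 (adjusted p = 4.9e-06). IL6 stood at 8.63 to 9.43 in DZH_2 cells and 6.17 to 7.30 in controls and rose by 2.24 ± 0.24. RELB, an NF-kB subunit that is itself induced by the pathway, rose by 1.69 ± 0.18, the adaptor TRAF1 by 1.76 ± 0.17 and the inhibitor NFKBIA by 1.45 ± 0.20. With single arrays left out 9 to 11 of the list rose. Chemokines stayed low, with 18 of 30 near the negative controls, and CXCL8 was the 1 that rose (1.48 ± 0.25), while 2 rose when IC20 replicate 1 or IC20 replicate 2 was left out. Of 36 interferon-induced genes 1 rose and 1 fell, against 3.43% and 5.07% of all genes tested. In this list 4 rose without IC20 replicate 2 or without ethanol replicate 2 and 2 without IC50 replicate 1. None fell without any 1 of IC20 replicate 1, IC20 replicate 2, DMSO replicate 2 and the untreated array.

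Among transporters, SLC37A2 (Entrez 219855), a sugar phosphate exchanger, stood at 13.64 and 12.41 on the IC20 arrays and 13.45 and 13.37 on the IC50 arrays, against 9.93 and 10.25 in DMSO, 9.99 and 10.55 in ethanol and 9.88 untreated, a rise of 3.09 ± 0.24. SLC14A1 (Entrez 6563), a urea transporter, stood at 11.99 and 12.43 on the IC20 arrays and 11.91 and 12.67 on the IC50 arrays, against 9.38 and 9.85 in DMSO, 9.38 and 9.06 in ethanol and 8.62 untreated, a rise of 2.99 ± 0.24. Neither gene's groups overlapped. The glucose transporter SLC2A3 rose by 1.89 ± 0.25 and hexokinase HK2 by 0.93 ± 0.17, while of 34 glycolysis and hypoxia genes 3 rose and 2 fell. With ethanol replicate 2 left out, 5 of them rose and 1 fell, and 1 fell without any 1 of IC20 replicate 2, IC50 replicate 2, DMSO replicate 1 and the untreated array. The clock repressor BHLHE40 rose by 2.14 ± 0.34 and CLOCK fell by 1.22, among 17 clock genes of which 3 rose and 1 fell. Of 30 respiratory chain and tricarboxylic acid cycle genes 2 fell, and none against DMSO alone or without most single arrays (any 1 of IC20 replicate 1, IC50 replicate 1, IC50 replicate 2, DMSO replicate 1, ethanol replicate 1 and the untreated array), while 1 fell without DMSO replicate 2. Of 36 apoptosis genes 2 rose and 3 fell, and against DMSO alone 3 rose and none fell. Against the 5 controls 1 rose without any 1 array other than DMSO replicate 1 and ethanol replicate 2. BMF, a BH3-only promoter of cell death, was raised by 1.41 ± 0.17. The secreted cystatins CST1 and CST4, near-identical genes, had differences of -2.88 ± 0.42 and -2.20 ± 0.30 and ended near the negative controls in DZH_2 cells. ANKRD36C, a member of a family of near copies, had a difference of -2.82 ± 0.32. WDR76, a nuclear repeat protein, had one of -2.49 ± 0.34.

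Adhesion and matrix genes showed single changes more than group changes. CAV1, the caveolar coat protein, stood at 11.04 to 11.36 in DZH_2 cells and 12.41 to 13.25 in controls, a difference of -1.62 ± 0.18. ITGA6, the laminin receptor subunit, had a difference of -1.58 ± 0.19 and ITGA10, a collagen receptor subunit, of 1.59 ± 0.21, and of 25 integrin and focal adhesion genes 1 rose and 2 fell, while 3 rose without ethanol replicate 2 and 2 without ethanol replicate 1. CCN2, the matricellular target of YAP and TGF-beta, stood at 9.91 to 11.55 in DZH_2 cells and 12.31 to 12.91 in controls, and it was the 1 YAP target of 22 that passed (difference -2.01 ± 0.26), although 2 passed without IC20 replicate 2 or without ethanol replicate 2. Of 30 collagens and matrix genes 5 fell, but 1 fell against DMSO alone, 2 without IC50 replicate 2, and 3 without any 1 of IC20 replicate 1, IC50 replicate 1, DMSO replicate 1 and the untreated array. The matrix protein TNC ranged over 6.06 to 8.69 in DZH_2 cells and 7.55 to 10.14 in controls, and its difference of -2.23 ± 0.53 missed the threshold without any 1 of DZH_2 IC20 replicate 1, IC50 replicate 1 and IC50 replicate 2. Among the marker lists, 3 of 17 MDA-MB-231 markers fell, which were CAV1, PLAU and VIM, although PLAU and VIM each missed the threshold without any 1 of 6 arrays and against DMSO alone, and 1 marker fell without any 1 of IC50 replicate 1, IC50 replicate 2, ethanol replicate 1 and the untreated array. CLDN4 was the 1 of 21 epithelial markers that rose (1.36 ± 0.21), with 3 rising without IC20 replicate 1, CD14 was the 1 of 15 blood cell markers that fell (-1.03 ± 0.17), and none of 14 fibroblast, endothelial and fat markers passed.

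**Figure D5:**
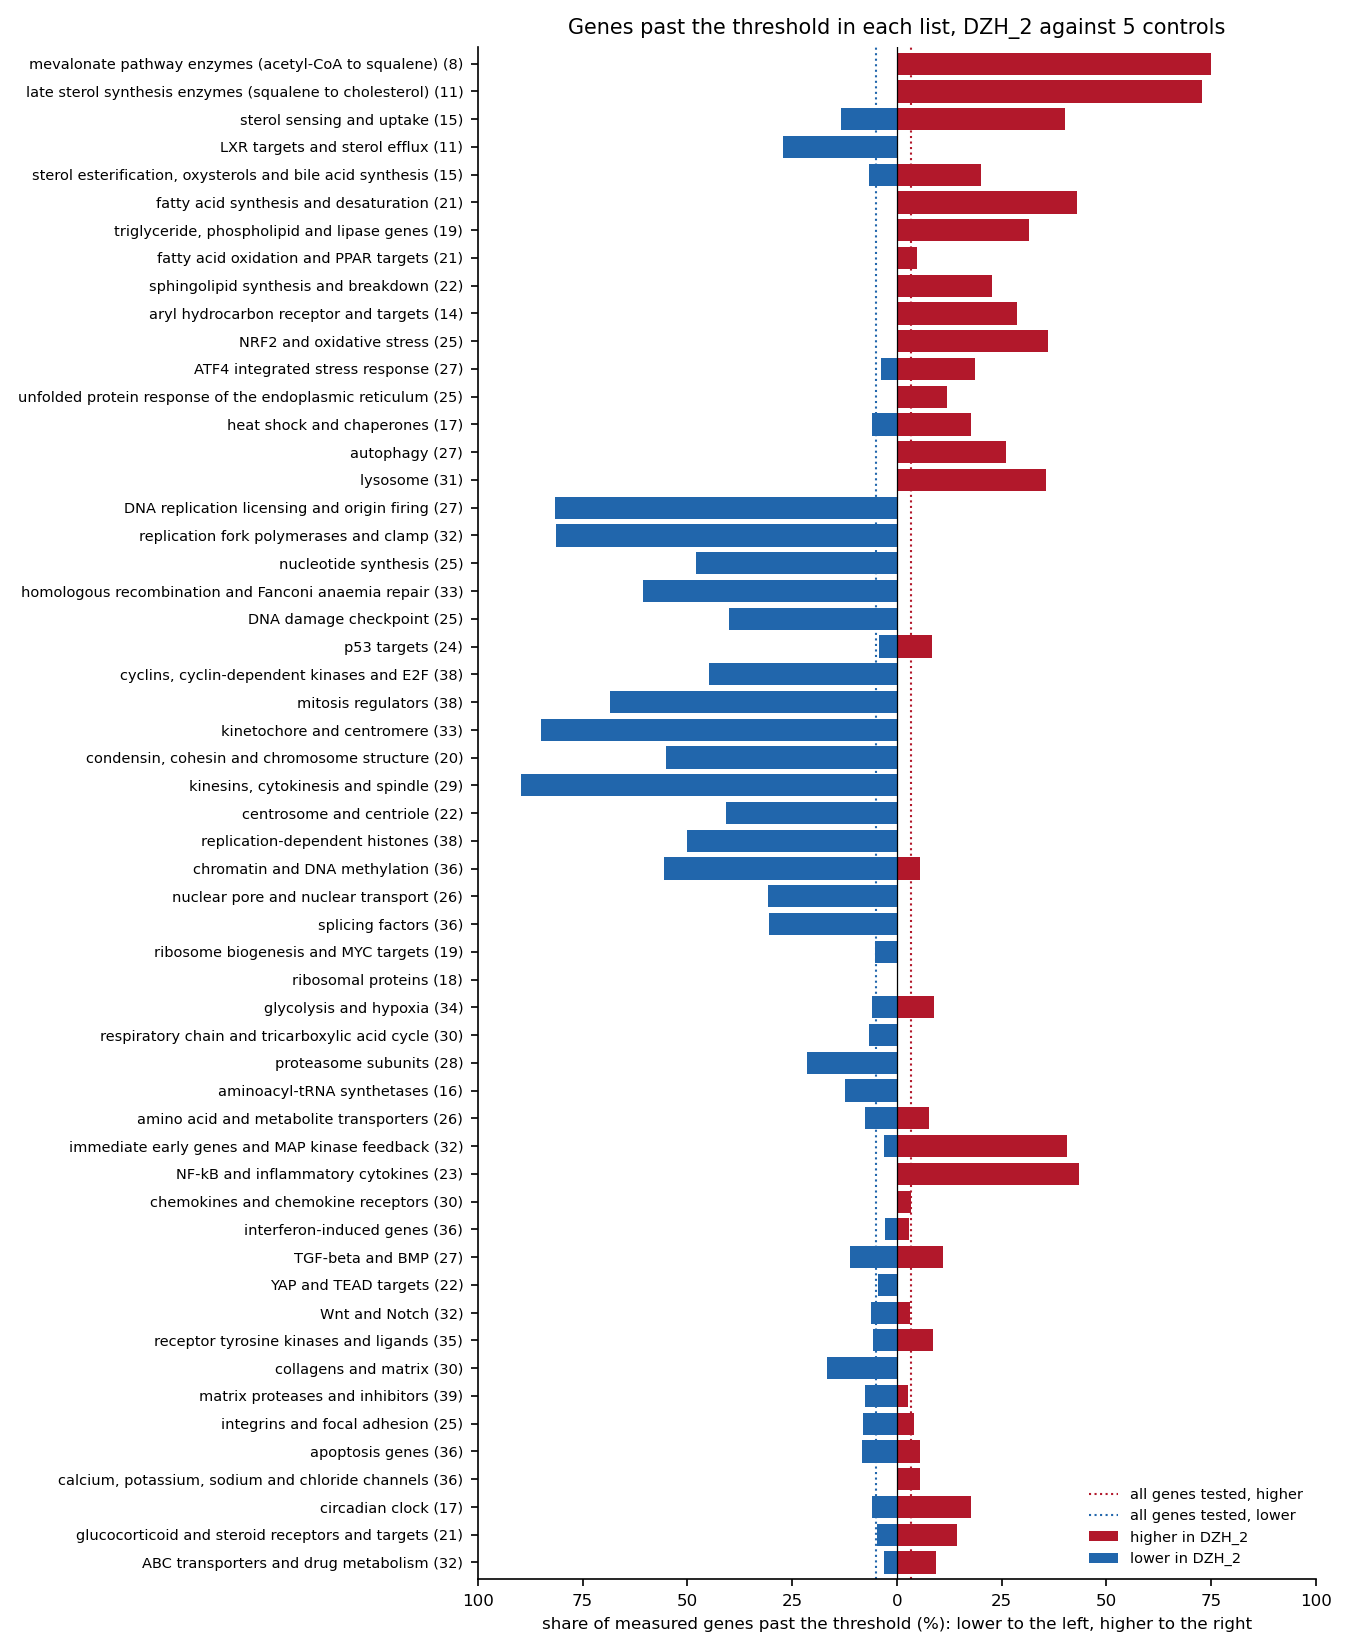
Share of the measured genes of each list that passed the threshold, lower in DZH_2 cells to the left in blue and higher to the right in red, with the number measured in brackets. Dotted lines mark the shares over all genes tested, 5.07% lower and 3.43% higher. Sterol enzymes form the longest bars to the right and kinesins, kinetochore, licensing and fork genes the longest to the left, while ribosomal proteins have no bar.

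No gene passed the test between the doses. Between IC50 and IC20 0.0% of genes passed by limma, 951 genes had an unadjusted p under 0.05 (5.38% of all genes), and the smallest adjusted p was 0.59. Of the 1504 genes that differed from the controls, 50 (3.32%) had an unadjusted p under 0.05. The choice of these genes itself favours a low share, since dose differences widen the spread that a called gene must exceed. The median rise of the raised genes was 0.87 at IC50 and 0.91 at IC20, and the median of the lowered genes was -1.06 at IC50 and -0.95 at IC20. Of the lowered genes 579 of 897 were lower at IC50, and of the raised genes 288 of 607 were higher at IC50. These are descriptions with 2 arrays per dose. The difference of IC50 from IC20 was 0.29 ± 0.31 for HMGCS1, -0.51 ± 0.30 for ABCG1, -0.13 ± 0.32 for CYP1A1, -0.11 ± 0.34 for RRM1 and 0.66 ± 0.30 for IL6. The 4 smallest unadjusted p belonged to NPIPB15, NPIPB9, NPIPB8 and NPIPB6, near-identical members of the nuclear pore interacting family that cannot be read as separate genes. NPIPB15 stood at 8.91 and 8.88 at IC50 and 10.42 and 10.43 at IC20, with controls at 8.77 to 9.64, a difference between doses of -1.53 ± 0.24 (limma, adjusted p = 0.59).

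Fewer genes passed against the DMSO arrays alone. Against them 395 genes (2.23%) were higher and 557 (3.15%) lower. Of the genes raised against all controls 299 were also raised against DMSO alone, and of those lowered 434. The count of 952 rested on both DMSO arrays: it was 54 without DMSO replicate 1 and 77 without DMSO replicate 2, with a single DMSO array assumed to vary like the DZH_2 arrays, and 574 without IC50 replicate 2. Against DMSO alone 6 of the 8 mevalonate enzymes, 8 of the 11 later sterol enzymes and 8 of the 21 fatty acid genes rose. The 4 genes whose difference depended most on the control were ENPP1, ST6GALNAC3, SCARA3 and H2AC4. ENPP1, which splits extracellular ATP, stood at 10.80 to 11.90 in DZH_2 cells, against 12.17 and 12.12 in DMSO, 13.68 and 15.03 in ethanol and 12.70 untreated. Its difference was -0.75 from DMSO and -2.41 from ethanol and untreated cells. SCARA3, a scavenger receptor, differed by -0.66 and -2.01, and the histone gene H2AC4 by -1.02 and -2.35. The sialyltransferase ST6GALNAC3 went the other way, with -2.39 from DMSO and -0.91 from ethanol and untreated cells. Against the 5 controls each of these missed the threshold without at least 1 of the IC50 arrays, H2AC4 by little (adjusted p = 0.0501 by limma).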

How the data were processed

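Whole-transcript expression arrays (GeneChip WT PLUS labelling, per the labels' protocols) were analysed for 9 MDA-MB-231 samples. Values are log2 signals per probe set as deposited by the authors. The log base was taken from their range, and how they were summarised and normalised is not stated in the labels or headers. Of 24351 probe sets, 2903 were controls, 3739 had no listed gene and 17709 had 1 gene. For 20 genes that had more than 1, only the brightest was kept, which left 17687 genes. limma 3.58.1 in R 4.3.3 fitted 2 groups with empirical Bayes, over 9 arrays for all controls and over 6 for DMSO alone, and for the doses a mean per treatment over 9 arrays, and p-values were adjusted by Benjamini-Hochberg over all genes. The procedure was tested on simulated data. The number of arrays limits the precision. Differences are given ± SE. DZH_2 (2 doses pooled) was compared with all 5 controls and with DMSO alone, and IC50 with IC20.

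The samples, gene lists and motifs were chosen with earlier results of these data known. Genes were named as follows: the 15 largest rises and 15 largest falls among genes past the threshold whose groups did not overlap, up to 5 genes of smallest p per list, 4 genes of smallest p between doses, and 4 genes whose difference from DMSO departed most from that from the other controls. Figure genes and promoters were chosen after their values were seen. Promoters are RefSeq windows on GRCh38.p14, the first listed per gene. Alternatives covered the controls used, each dose alone, centring, quantile normalisation, a filter on dim genes, the spread over 13 arrays, a trended and robust fit, array weights, the replicate number as a block, all probe sets and single arrays left out. Maraviroc arrays entered only the spread over 13 arrays and quantile normalisation, and the MCF10 arrays were not used.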

Additional observations from a re-analysis of the deposited data

Results flagged for a closer look

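In 24 of 332 pairs of a named gene and a group, the 4 DZH_2 arrays or the 5 controls, 1 array stood farther from the others than Dixon's critical value allows, where chance gives about 1 in 20. Among the DZH_2 arrays, IC20 replicate 1 was highest at 11.72 for ANKRD36C (the others 10.14 to 10.21), 13.53 for SYVN1 (the others 13.07 to 13.14), 8.04 for POLA1 (the others 7.43 to 7.53) and 12.22 for HNRNPR (the others 11.62 to 11.69). Among the DZH_2 arrays, IC20 replicate 1 was lowest at 8.72 for MVD (the others 9.28 to 9.38), 13.97 for MGST1 (the others 14.18 to 14.22) and 5.13 for ABCC2 (the others 5.42 to 5.46). Among the DZH_2 arrays, IC20 replicate 2 was lowest at 8.23 for MELK (the others 8.96 to 9.06). Among the DZH_2 arrays, IC50 replicate 2 was highest at 15.28 for CSF1 (the others 14.68 to 14.73), 9.56 for DNAJB9 (the others 8.99 to 9.07) and 9.08 for CXCL8 (the others 8.45 to 8.46). Among the controls, DMSO replicate 2 was highest at 12.06 for NPC1 (the others 11.01 to 11.18). Among the controls, DMSO replicate 2 was lowest at 8.36 for KIF4A (the others 8.95 to 9.14). Among the controls, ethanol replicate 1 was lowest at 5.63 for ITGA10 (the others 6.41 to 6.59). Among the controls, ethanol replicate 2 was highest at 8.92 for HMGCS1 (the others 7.97 to 8.12), 11.49 for IDI1 (the others 9.93 to 10.35), 8.45 for HSD17B7 (the others 7.53 to 7.70), 14.74 for PSAP (the others 14.18 to 14.34) and 9.34 for ORAI3 (the others 7.63 to 7.96). Among the controls, ethanol replicate 2 was lowest at 8.27 for XRCC2 (the others 9.07 to 9.25), 9.16 for PRIM1 (the others 9.86 to 9.96), 11.93 for DDIT4 (the others 13.23 to 13.64), 7.73 for PLK4 (the others 8.26 to 8.42) and 12.82 for GARS1 (the others 14.91 to 15.11).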

How the results depend on the processing

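The count of 1504 genes that differed from the 5 controls was 952 with DMSO as the only control, 570 with the IC20 arrays alone, 962 with the IC50 arrays alone and 876 with the DZH_2 arrays numbered 1 alone. With single arrays left out it was 1024 (without IC50 replicate 2) to 1798 (without ethanol replicate 2). The other alternatives tried gave 1006 to 1917. For DMSO alone the count of 952 was 533 with the spread taken over 13 arrays and 54 to 1025 with single arrays left out. Between the doses the count was 0 under every alternative run, with single arrays left out too. Fewer arrays enter several of these fits, and the cause of the differences was not tested. No label says that a replicate number marks a shared culture or day. Same-numbered deviations correlated at 0.301 between IC20 and IC50 and at -0.08 to 0.069 between the other pairs of groups, and the replicate block gave 1520 genes against all controls and 1231 against DMSO alone. Of the 159 named genes past the threshold, 111 passed under all 24 alternatives and none changed direction under any of them. Most named genes were chosen for large differences or small p in these same arrays, which favours such agreement. Of the 159, 33 missed the threshold with the IC20 arrays alone and 22 with DMSO as the only control. Genes near the negative controls have sizes limited by the array's floor.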

Other observations

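Genes of cell communication moved singly. Over all genes tested, 3.43% were higher and 5.07% lower. Of 27 TGF-beta and BMP genes 3 rose and 3 fell, with 1 falling without any 1 of IC50 replicate 1, DMSO replicate 1, DMSO replicate 2 and ethanol replicate 1. The type I receptor TGFBR1 stood at 11.09 to 11.82 in DZH_2 cells and 10.19 to 10.82 in controls, a rise of 1.07 ± 0.19, and FSTL3, a secreted inhibitor of activin, rose by 1.09 ± 0.23. SMURF2, a ubiquitin ligase that acts on the receptor, had a difference of -1.17 ± 0.21. Of 35 genes of receptor tyrosine kinases and their ligands 3 rose and 2 fell, with EFNA1, an ephrin, at 6.81 to 7.84 in DZH_2 cells and 5.73 to 6.40 in controls (difference 1.12 ± 0.22). None of these 35 passed against DMSO alone, and 1 fell without any 1 array other than IC20 replicate 2 and DMSO replicate 2. Of 32 Wnt and Notch genes 1 rose and 2 fell (2 rose without ethanol replicate 2), among them LEF1, a nuclear partner of beta-catenin (-1.01 ± 0.19), and JAG1, a Notch ligand (-0.75 ± 0.20), which missed the threshold, leaving 1 fall, without any 1 of 5 arrays, namely IC20 replicate 1, both IC50 arrays, DMSO replicate 1 and the untreated array.

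For the lists that follow, 3.43% of all genes tested were higher and 5.07% lower. Of 36 channel genes 2 rose: ORAI3, a store-operated calcium channel, by 1.52 ± 0.30, and ITPR3, which releases calcium from the endoplasmic reticulum, by 1.04 ± 0.16. The call of ORAI3 was not kept under all 24 alternatives. Of 21 nuclear receptors and steroid targets 3 rose and 1 fell, with the retinoic acid receptor RARG raised by 1.27 ± 0.17 and the glucocorticoid target TSC22D3 by 1.25 ± 0.22, while the kinase SGK1 had a difference of -0.83 ± 0.23, a fall lost without any 1 array other than IC20 replicate 2 and the DMSO arrays. Without IC20 replicate 2, 2 of the list fell. Of 32 ABC transporters and drug metabolism genes 3 rose and 1 fell, while 5 rose without ethanol replicate 2 and none fell without any 1 of IC20 replicate 1, IC20 replicate 2, ethanol replicate 1 and the untreated array. The membrane glutathione transferase MGST1 rose by 0.94 ± 0.17 and ABCA7, a lipid transporter, by 0.80 ± 0.22. The exporter ABCC2 passed with a mean near the negative controls in both groups, and CYP3A5 passed as lower with its DZH_2 mean near them. ABCA7 and CYP3A5 each missed the threshold without any 1 of several arrays, IC20 replicate 1 and the untreated array among them. The pair of falls among apoptosis genes with the largest differences were BIRC5, the mitotic survival protein survivin (-1.25 ± 0.26), and BCL2L1, an inhibitor of mitochondrial cell death (-1.16 ± 0.27). The call of BCL2L1 was lost without IC50 replicate 1, and neither gene passed against DMSO alone.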
